A study of Drosophila melanogaster with 34 samples.

Results

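Wing imaginal discs homozygous for scrib1 and collected 6 days after egg laying (AEL) were compared with control discs collected at 5 days AEL. Both sets of larvae carried the FRT82B chromosome. The tumors had the genotype scrib-/-FRT82B and came from the strain scrib1 FRT82B/TM6B, and the control discs had the genotype FRT82B, strain BL2035. The comparison takes 7 libraries of 34, with 3 replicates of the tumors and 4 of the control discs, chosen by their labels alone. Larvae grew at 25 degrees in vials that held about 50 embryos from an egg collection of 3 h. Total RNA of the discs was sequenced as paired reads, and the deposited values are CPM, read counts of each gene scaled to library size after a scaling of each library. The tumors were a day older than the control discs and came from a different strain. Age, the scrib mutation and strain background therefore cannot be told apart in any difference given here. Because of the age difference, the means of control discs at 4 days (3 libraries) and of tumors at 5 days (4 libraries) are given beside the main values. These added groups do not separate the mutation from strain background. The labels and methods do not say how many discs or which sexes went into a library.

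Scribble is a scaffold protein of the septate junction region that, with Dlg and Lgl, sets the basolateral side of epithelial cells. Discs without it lose their epithelial layer and stay in the larva while metamorphosis is delayed, and they overgrow only in time. The paper reports that early tumors are smaller than control discs and that their growth speeds up with age. Several pathways are known from such tumors. JNK signaling activates AP-1 and with it Mmp1 and puc, the Unpaired cytokines activate JAK/STAT, and the hormone-like peptide Ilp8 holds back the pulse of ecdysone that ends larval life. In normal discs at the end of larval life the same steroid turns on the genes of eversion and of cuticle formation.

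The 7 libraries held 20299235 to 22549889 reads assigned to genes, and 3 reads, taken as the smallest value that can be told from 0, corresponded to 0.129 to 0.154 CPM. Of all CPM in a library, 7.32 to 8.43% belonged to its 10 most abundant genes. On the log2(CPM + 1) scale, each library lay 22.6 to 27.8 away on average from the replicates of its own group and 95.9 to 101.3 from the libraries of the other group, as the Euclidean distance over all tested genes. No pair of replicates within either group was as alike as repeat counts of 1 library would be. The labels call the libraries replicates and the paper calls them biological replicates. Neither says how the larvae were divided among them, so that the p-values measure the spread between libraries. That spread was estimated within all 9 groups of the 34 libraries, not from these 7 alone. The labels name no sequencing batch or date.

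Of 9637 genes tested with limma, 3172 were higher in the tumors (32.9%) and 2799 were lower (29%) at an adjusted p under 0.05. A log2 difference of at least 1 as well was reached by 722 higher genes (7.49%) and 623 lower genes (6.46%). The median log2 fold change of all tested genes was 0.04, and the values from the 5th to the 95th percentile lay between -1.25 and 1.43. In 3497 genes (36.3%) every tumor library was above every control library, and in 2952 (30.6%) every one was below. Tumors at 5 days, set against the same control discs, had 3755 higher (39%) and 3135 lower genes (32.5%). Against control discs at 4 days, 26.5% of all tested genes were higher in tumors at 6 days and 24.9% lower. From 4 to 5 days 26.6% rose and 27.2% fell in the control discs. With libraries scaled by their reads alone, without the scaling factors of the deposited values, the split changed to 2519 higher and 3409 lower genes. Small differences of either sign therefore depend on the scaling, and the counts of gene lists below are to be read against these shares. All fold changes are differences of log2(CPM + 1), which understate the change of genes with low values.

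**Figure D1:**
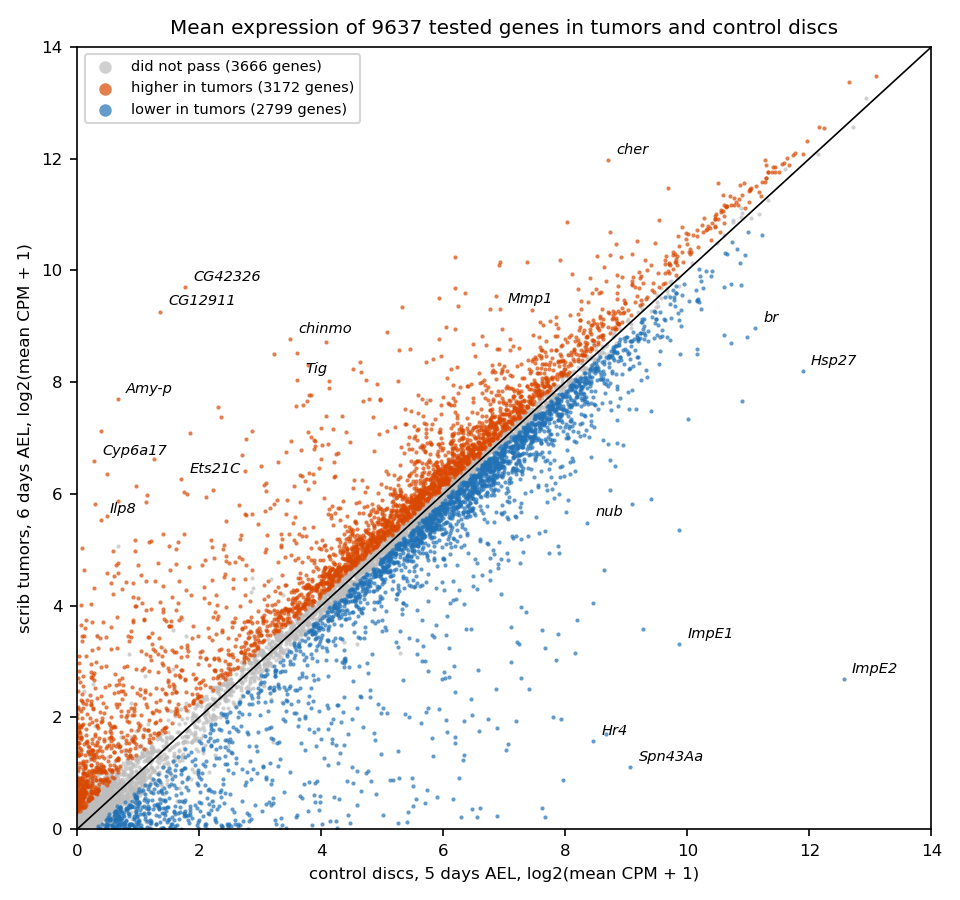
Each point is 1 of 9637 tested genes, at its mean in 4 control libraries (x axis) and 3 tumor libraries (y axis), both as log2(mean CPM + 1), with the line of equal values. The labelled genes lie far from the line on both sides: CG42326, chinmo and cher above it, ImpE2, ImpE1 and Hr4 below it.

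The scrib transcript itself was present in the tumors. It measured 692, 739.6 and 717 CPM in the 3 tumor libraries and 441, 470.0, 454 and 468 CPM in the 4 control libraries. The groups did not overlap, and the log2 fold change was 0.64 (SE 0.06, adjusted p = 2.9e-10, limma). The gene lies on the plus strand of chromosome 3R at 26536350 to 26604051 (BDGP6 annotation). A mutant transcript that is still made gives no check of the labels through its level.

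The libraries were checked for their tissue. The wing genes vg, nub, ap, rn and sd were detected in all 7 libraries, with sums of 954 to 1004 CPM in the tumors and 1811 to 1896 CPM in the control discs, and 4 of these 5 genes were lower in the tumors. The RNA of other tissues was present at levels that differed between the groups. The 6 muscle genes summed to 1300 to 1328 CPM in the tumors against 633 to 675 CPM in the control discs, and all 6 were higher in the tumors. Mhc, the myosin heavy chain of muscle, measured 50.9, 73.5 and 62.0 CPM in the tumors and 0.547, 1.21, 0.708 and 2.40 CPM in the control discs. The 9 gut genes summed to 299 to 1033 CPM in the tumors and 0.992 to 257 CPM in the control discs, and 5 of 8 tested were higher. The 8 hemocyte genes summed to 88.7 to 129 CPM against 21.9 to 71.4 CPM, and 6 were higher. Hml, a clotting protein of plasmatocytes, measured 17.8, 26.6 and 32.0 CPM in the tumors and 4.06, 4.23, 0.943 and 3.35 CPM in the control discs. The hemocyte count rested on single libraries, with 2 higher genes without tumor replicate 3 and 3 without control replicate 3 or without control replicate 4. Against control discs at 4 days 3 of the 8 hemocyte genes were higher in the tumors and 0 lower. Hml had a mean of 14.7 CPM in those discs and did not pass (log2 0.86, adjusted p = 0.1, limma). The 6 fat body genes overlapped, with 197 to 384 CPM in the tumors and 104 to 1101 CPM in the control discs. The 3 salivary glue genes were nearly missing in the tumors (0.257 to 0.543 CPM) and reached 7.98 to 103.6 CPM in the control discs, where replicate 4 was the highest. From 4 to 5 days the control discs showed a fall of 5 of the 6 muscle genes and 4 of the 8 gut genes (27.2% of all tested genes fell and 26.6% rose). In the tumors 1 gene of each of these lists was higher than in control discs at 4 days, where 26.5% of all tested genes were higher and 24.9% lower. The part of these tissues in the results was not tested. In a bulk sample, fewer cells of a type and less RNA per cell cannot be told apart. Of the sex-specific genes Sxl, msl-2, roX1 and roX2, none passed the limma test, by adjusted or unadjusted p, whereas 3 were lower in a fit of the 2 groups alone. roX1, a noncoding RNA of the male dosage compensation complex, measured 211 to 265 CPM in the tumors and 261 to 339 CPM in the control discs.

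The 15 largest rises among genes with at least 10 CPM in the tumors and no overlap between the groups spanned log2 fold changes of 5.14 to 7.98. They were CG42326, CG12911, Amy-p, CG17108, Cyp6a17, Lsp1gamma, ppk13, chinmo, Tdc1, Esyt2, CG9572, Tsp42El, GstD3, Spn47C and Ilp8. The largest was CG42326, with 781, 845 and 879 CPM in the tumors and 1.96, 1.42, 3.30 and 2.88 CPM in the control discs. CG12911 followed, with 625, 635 and 583 CPM against 1.09, 1.55, 1.79 and 1.82 CPM. The files give no function for either gene. Cyp6a17, a cytochrome P450, measured 95.9, 95.7 and 93.7 CPM in the tumors and 0.137 to 0.432 CPM in the control discs, and was listed at 0 in control discs at 4 days. GstD3, a glutathione S-transferase gene, measured 56.1 to 59.2 CPM against 0.425 to 0.719 CPM. Tdc1, a tyrosine decarboxylase, measured 103.9, 95.6 and 92.9 CPM against 1.19 to 1.58 CPM. Amy-p, a digestive enzyme that also stood in the gut marker list, measured 202, 230.2 and 189 CPM in the tumors and 0.302 to 0.943 CPM in the control discs. Lsp1gamma, a larval serum protein of the fat body, measured 46.4, 59.9 and 137 CPM against 0.043 to 0.671 CPM, and it was the only gene of the 15 that differed between tumors at 6 and 5 days, where it was lower at 6 days (log2 -2.65, adjusted p = 0.023, limma). All 15 were also higher in the tumors than in control discs at 4 days, in a comparison that shares the tumor libraries. The smallest of those differences was that of chinmo (log2 1.53).

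The 15 largest falls spanned -10 to -5.80. ImpE2, Spn43Aa, Blimp-1, Spn100A, ImpE3, Hr4, Fbp1, CG15905, ImpE1, Eip78C, ana, St2, CG1273, CG5758 and CG11899 made up this set. Their means in control discs at 4 days were 0.187 to 48.0 CPM, all far below those of control discs at 5 days. Against the 4-day discs 8 of the 15 were lower in the tumors and none was higher, and the log2 fold changes of the 15 lay between -2.30 and 0.36. Fbp1, a fat body receptor of serum proteins, varied widely among the control discs (632, 701, 87.5 and 194.6 CPM).

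Genes that respond to ecdysone were among the deepest falls. ImpE2, a secreted protein induced by ecdysone in everting discs, was the gene with the largest difference of all. It measured 2.81, 3.93 and 9.50 CPM in the tumors and 6462, 4689, 7299 and 5776 CPM in the control discs at 5 days. No tumor library came near a control library, and the log2 fold change was -10 (SE 0.73, adjusted p = 3.6e-13, limma). In control discs at 4 days its mean was 35.9 CPM, with libraries from 3.77 to 83.5 CPM, and the difference of the tumors from those discs did not pass the test (log2 -1.82, adjusted p = 0.051, limma). ImpE2 lies on the minus strand of chromosome 3L at 3510974 to 3512681. ImpE1, another ecdysone-induced gene of the disc epithelium, measured 7.85, 9.12 and 9.75 CPM in the tumors and 982, 652, 1138 and 968 CPM in the control discs. ImpE3 measured 0.561 to 1.078 CPM against 158 to 312 CPM. Unlike ImpE2, both ImpE1 and ImpE3 were also lower in the tumors than in control discs at 4 days past the threshold. The log2 fold changes were -2.30 and -1.67 (adjusted p = 3.2e-07 and 0.00077, limma).

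Hr4, Eip78C, Eip75B and Blimp-1, which encode factors of the hormone cascade, were also lower in the tumors, and ftz-f1 was higher. Hr4, a receptor that acts as a repressor in the early phase of metamorphosis, measured 2.02, 1.82 and 2.10 CPM in the tumors and 378, 184, 455 and 389.6 CPM in the control discs. Eip78C, a receptor gene of a late ecdysone puff, measured 0.140 to 0.197 CPM in the tumors, near the value of 3 reads, and 73.7 to 108 CPM in the control discs. Eip75B, an early ecdysone-induced receptor, measured 111, 127 and 114 CPM against 378, 419, 431 and 431 CPM (log2 -1.81). Blimp-1, an ecdysone-induced repressor that times ftz-f1, measured 0.099, 0.093 and 0.308 CPM in the tumors and 216, 118, 268 and 208 CPM in the control discs. The groups did not overlap for any of these genes, and neither Hr4 nor Eip78C nor Blimp-1 differed between the tumors and control discs at 4 days past the threshold (log2 0.36, -0.69 and -0.02). ftz-f1, the competence factor that Blimp-1 represses, was higher in the tumors, with 97.9, 93.5 and 91.8 CPM against 6.75, 12.6, 5.42 and 10.3 CPM (log2 3.35, SE 0.15, adjusted p = 2.6e-18, limma). Its mean was 63.0 CPM in control discs at 4 days.

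The temporal genes chinmo and br moved in opposite directions. Chinmo, a BTB zinc finger factor, is known to mark early larval identity and gives way to Broad at the end of larval life. It measured 434, 441 and 428 CPM in the tumors and 6.89, 11.6, 6.27 and 16.2 CPM in the control discs, with no overlap (log2 5.37, SE 0.17, adjusted p = 5.1e-22, limma). Broad (br), the factor that specifies the pupal stage, measured 506, 500.3 and 494 CPM in the tumors and 2239, 2116, 2361 and 2162 CPM in the control discs (log2 -2.15). In control discs at 4 days chinmo had a mean of 150.3 CPM and br one of 756 CPM, so that the tumors lay outside both control ages for both genes, above them for chinmo (log2 1.53 against 4 days) and below them for br (log2 -0.58). br was higher in tumors at 6 days than at 5 days (log2 0.75, adjusted p = 0.00015, limma), and chinmo did not pass that test (log2 0.09, adjusted p = 0.82). Eip93F, the adult specifier, stayed at or under 0.613 CPM in every library of both groups. Of the 22 tested genes of the ecdysone and temporal list, 15 were lower and 5 higher in the tumors, with a median log2 fold change of -1.0 against 0.04 for all genes. Against control discs at 4 days, 7 were lower and 4 higher, beside 24.9% and 26.5% of all tested genes. Between 4 and 5 days, 14 rose and 4 fell in the control discs, beside 26.6% and 27.2% of all tested genes.

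**Figure D2:**
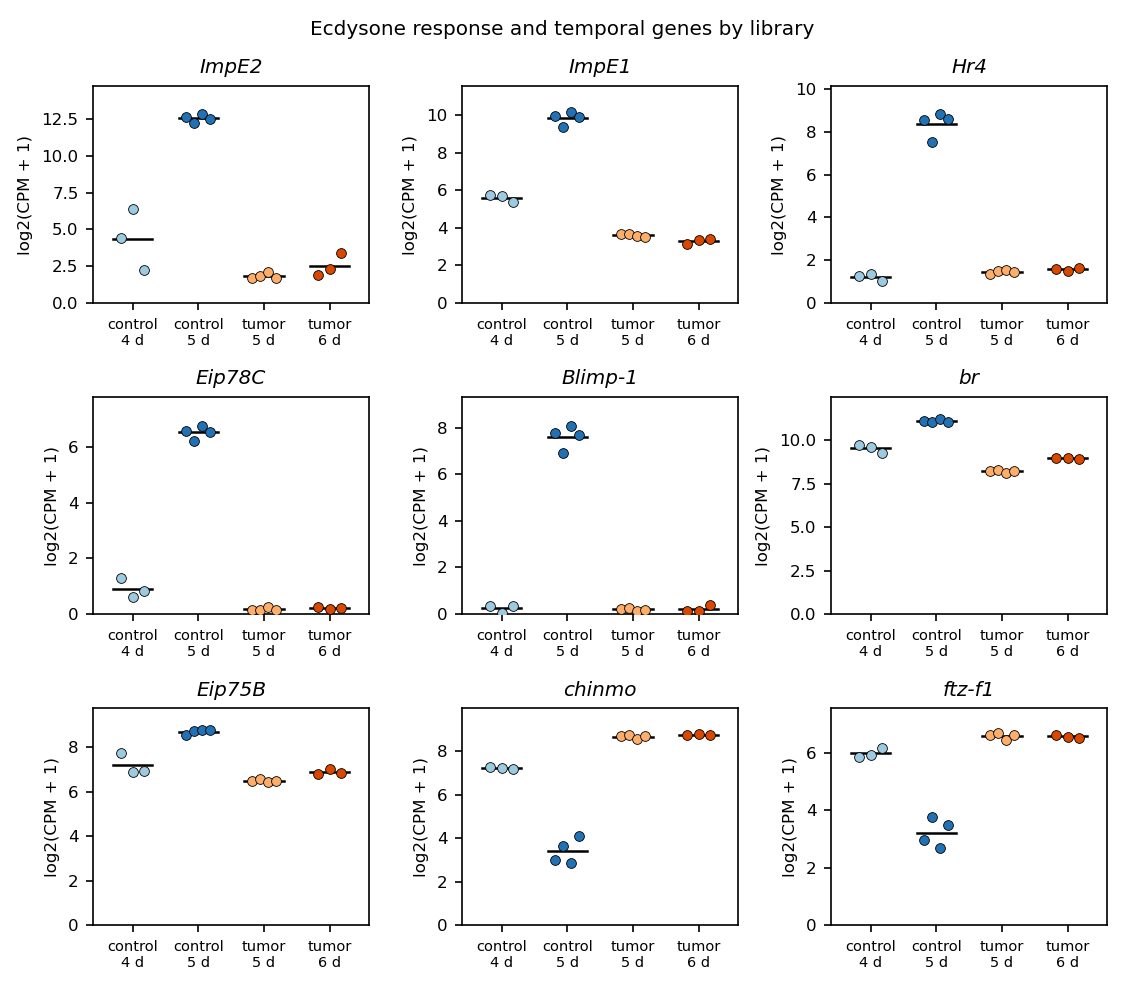
Points are single libraries of control discs at 4 and 5 days and of tumors at 5 and 6 days, with the group mean as a line and log2(CPM + 1) on the y axis of each panel. ImpE2, ImpE1, Hr4, Eip78C and Blimp-1 stand high in control discs at 5 days alone, whereas chinmo and ftz-f1 are low there and high in the other 3 groups.

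The Unpaired cytokines, ligands of the JAK/STAT receptor Domeless, were all higher in the tumors. upd1 measured 62.9, 68.4 and 63.9 CPM in the tumors and 6.75, 8.20, 8.11 and 6.996 CPM in the control discs (log2 2.96, SE 0.12, adjusted p = 4.6e-19, limma). upd2 measured 15.8, 19.5 and 17.5 CPM against 0.456, 0.259, 0.755 and 0.527 CPM (log2 3.64). upd3 measured 15.4, 19.96 and 14.8 CPM against 0.684, 0.820, 0.991 and 1.01 CPM (log2 3.23). Each tumor library stood above each control library for all 3 ligands. The genes lie close together on the X chromosome, upd2 at 18240654 to 18243284, upd3 at 18277233 to 18284596 and upd1 at 18305354 to 18309291. All 3 were also higher than in control discs at 4 days (log2 1.60 for upd1, 3.47 for upd2 and 2.14 for upd3). In tumors at 5 days the means were 96.9, 25.9 and 26.3 CPM, and upd1 and upd3 were lower at 6 than at 5 days (log2 -0.56 and -0.62, adjusted p = 0.0027 and 0.026, limma), whereas upd2 did not pass (log2 -0.53, adjusted p = 0.055).

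Downstream of the ligands the differences were smaller. Socs36E, the negative feedback target of the pathway, measured 224, 248 and 224 CPM in the tumors and 96.5, 102, 106 and 107 CPM in the control discs (log2 1.17, SE 0.09). The receptor gene dome was slightly higher (log2 0.32) and the kinase gene hop slightly lower (log2 -0.28). Stat92E, the transcription factor, measured 194.9 to 209 CPM against 206 to 225 CPM and did not pass (log2 -0.08, adjusted p = 0.17, limma). It was lower past the threshold with DESeq2 size factors and with libraries scaled by reads alone (log2 -0.11 and -0.18). In the whole list, 8 of 13 genes were higher and 3 lower in the tumors, with a median of 0.39.

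The JNK targets puc and Mmp1 were higher in the tumors, whereas the kinase genes hep and bsk did not pass the test. puc, the phosphatase that is both target and inhibitor of JNK, measured 158, 151 and 146 CPM in the tumors and 39.3, 36.1, 43.2 and 44.7 CPM in the control discs (log2 1.87, SE 0.09, adjusted p = 1.1e-17, limma). Mmp1, a matrix metalloproteinase, measured 625, 631 and 647 CPM against 113, 99.7, 147 and 122 CPM (log2 2.40, SE 0.11). No library of one group reached the other for either gene. Mmp1 was lower in tumors at 6 days than at 5 days (log2 -0.43, adjusted p = 0.0084, limma), where its mean was 858 CPM. kay, which encodes the Fos subunit of AP-1, was higher by log2 0.69, with 301 to 346 CPM against 188 to 212 CPM. The ligand and one receptor went the other way. egr, the TNF ligand Eiger, measured 4.69, 5.00 and 4.21 CPM in the tumors and 9.97 to 12.3 CPM in the control discs (log2 -1.08), and wgn, the receptor Wengen, 14.7, 16.6 and 15.2 CPM against 66.6 to 70.6 CPM (log2 -2.06). grnd, the receptor Grindelwald, was higher by log2 0.23. The kinase genes hep and bsk had log2 fold changes of 0.01 and 0.04 and did not pass (adjusted p = 0.91 and 0.63, limma). Of 16 genes on the list, 7 were higher and 3 lower, with a median of 0.11.

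Stress factors and secreted signals were mostly higher. Ets21C, an Ets factor that works with AP-1 in tumors, measured 67.1, 87.7 and 73.5 CPM in the tumors and 1.92, 2.20, 2.88 and 2.01 CPM in the control discs (log2 4.57, SE 0.19, adjusted p = 1.1e-18, limma). It was lower than in tumors at 5 days (log2 -0.65, adjusted p = 0.034). Atf3, a bZIP factor, measured 122, 114.9 and 109.5 CPM against 12.0, 16.7, 12.3 and 14.4 CPM (log2 2.98). Xrp1, a bZIP factor of cell competition and DNA damage, measured 881, 953 and 867 CPM against 392 to 413 CPM (log2 1.15). The tumors were above the control discs in every library for all 3 factors.

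Ilp8, the relaxin-like peptide by which damaged discs delay metamorphosis, measured 35.5, 51.6 and 49.6 CPM in the tumors and 0.182, 0.302, 0.330 and 0.431 CPM in the control discs (log2 5.14, SE 0.28, adjusted p = 5.5e-16, limma). The control values were only slightly above the value of 3 reads. In control discs at 4 days the mean was 4.14 CPM, and the tumors were higher than those as well (log2 3.23). Ilp8 lies on the minus strand of chromosome 3L at 17029812 to 17032080. ImpL2, a secreted antagonist of insulin-like peptides, measured 436, 599.7 and 488 CPM against 60.1 to 71.2 CPM (log2 2.94). Pvf1, a ligand of the PDGF and VEGF receptor homolog Pvr, measured 74.6, 82.1 and 79.4 CPM against 8.28 to 14.9 CPM (log2 2.65). Mmp2, the second matrix metalloproteinase, was lower, with 33.4, 38.3 and 35.2 CPM against 67.6 to 119 CPM (log2 -1.38), but higher than in control discs at 4 days (log2 1.36). In the list, 14 of 18 genes were higher and 2 lower, with a median of 1.0, and against control discs at 4 days 15 were higher and none lower.

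**Figure D3:**
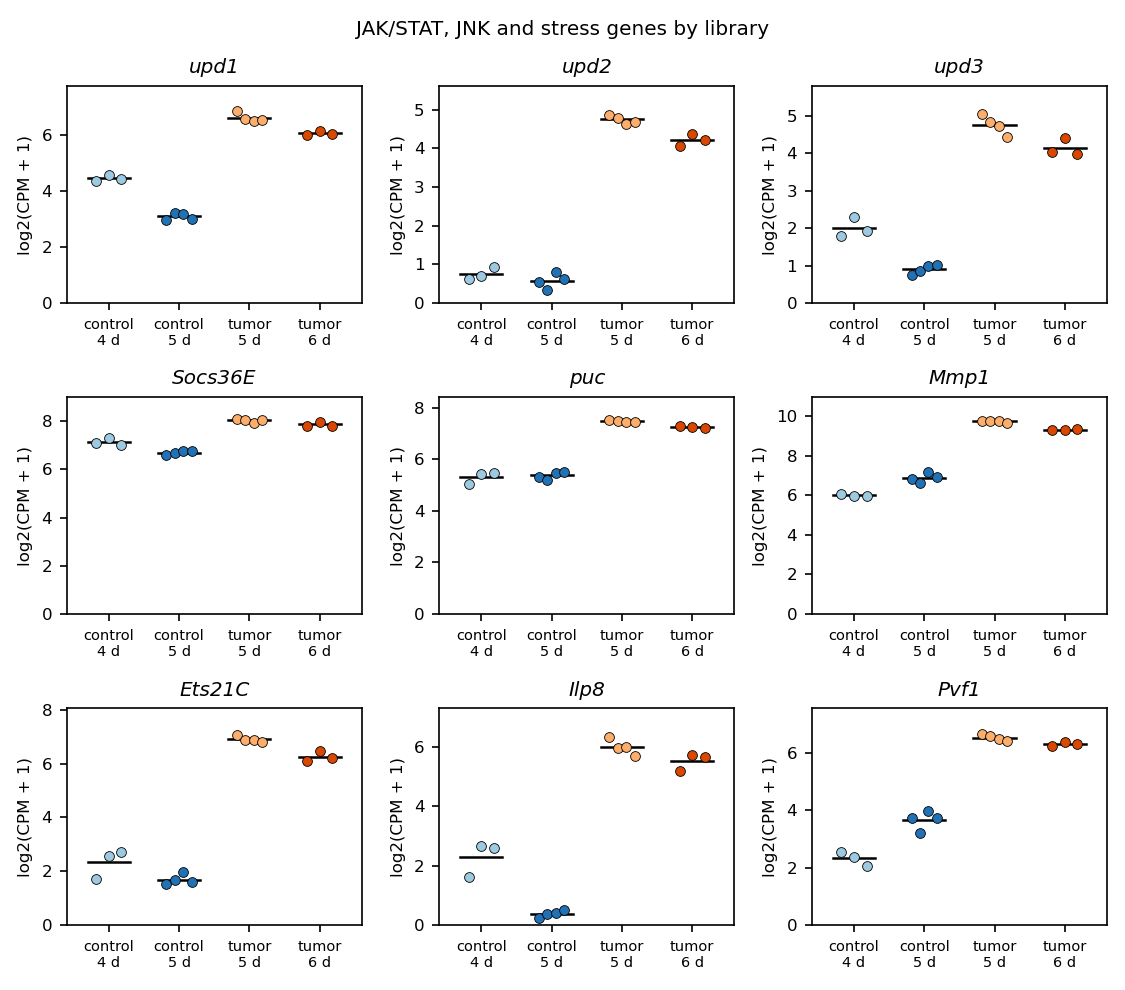
Points are single libraries of control discs at 4 and 5 days and of tumors at 5 and 6 days, with the group mean as a line and log2(CPM + 1) on the y axis of each panel. For upd1, upd2, upd3, Socs36E, puc, Mmp1, Ets21C, Ilp8 and Pvf1 the tumors of both ages lie above the control discs of both ages.

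Of 31 genes that give the wing disc its regions, 25 were lower in the tumors, 3 were higher and 3 did not pass the test. Distal-less (Dll), a homeobox factor of distal appendages and of the wing margin, measured 12.9, 12.8 and 15.7 CPM in the tumors and 159, 167, 162 and 160.3 CPM in the control discs (log2 -3.47, SE 0.20, adjusted p = 2.3e-15, limma). nub, a POU factor of the wing pouch, measured 40.8, 41.3 and 49.4 CPM against 333, 313, 326 and 339 CPM (log2 -2.88). vg, the wing selector, measured 179, 215 and 202 CPM against 406 to 458 CPM (log2 -1.10), and ap, the dorsal selector, 221 to 251 CPM against 449.6 to 472 CPM (log2 -0.97). All of these values fell outside the range of the other group. sd, which encodes the partner of Vestigial, had a log2 fold change of 0.14 and did not pass (adjusted p = 0.093, limma).

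In the posterior compartment, the selector en measured 28.2, 31.3 and 30.5 CPM in the tumors and 156, 149, 153 and 171 CPM in the control discs (log2 -2.35), and its target hh, the Hedgehog ligand, measured 16.9, 22.2 and 18.8 CPM against 83.9 to 97.6 CPM (log2 -2.15). Wingless (wg), the ligand of the dorsoventral margin, measured 45.5, 48.5 and 48.9 CPM against 138 to 151 CPM (log2 -1.58). In the notum, the Iroquois genes ara and caup were lower by log2 1.84 and 1.46 (50.6 to 63.2 CPM against 199.5 to 222 CPM, and 84.9 to 94.8 CPM against 242 to 255 CPM), and the GATA factor gene pnr measured 2.81, 3.69 and 3.39 CPM against 51.1 to 52.2 CPM (log2 -3.62). The genes salm and bi, targets of Dpp in the pouch, were lower by log2 1.24 and 1.66. The median log2 fold change of the 31 genes was -1.29.

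The 3 higher genes were dpp, tsh and ci. dpp, the BMP ligand, measured 192, 209 and 194 CPM in the tumors and 87.9, 87.6, 86.3 and 92.0 CPM in the control discs (log2 1.16, SE 0.06, adjusted p = 2.7e-16, limma). tsh, a zinc finger factor of the proximal wing and body wall, measured 575, 576 and 546 CPM against 371 to 386 CPM (log2 0.58). ci, which encodes the anterior effector of Hedgehog signaling, was higher by log2 0.38. Against control discs at 4 days 21 genes of the list were lower and 6 higher, and in control discs 27 rose from 4 to 5 days and none fell. Between tumors at 5 and 6 days 10 genes of the list rose and none fell. Among them were Dll (log2 1.47, adjusted p = 1.1e-05), nub (log2 1.33, adjusted p = 6.7e-06), ara (log2 1.24, adjusted p = 2.1e-10) and caup (log2 0.88, adjusted p = 3.7e-05), all with limma. Over all tested genes 434 (4.5%) were higher and 380 (3.94%) lower at 6 than at 5 days. The tumors at 6 days remained below control discs at 4 days for Dll (log2 -2.51) and nub (log2 -2.45).

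**Figure D4:**
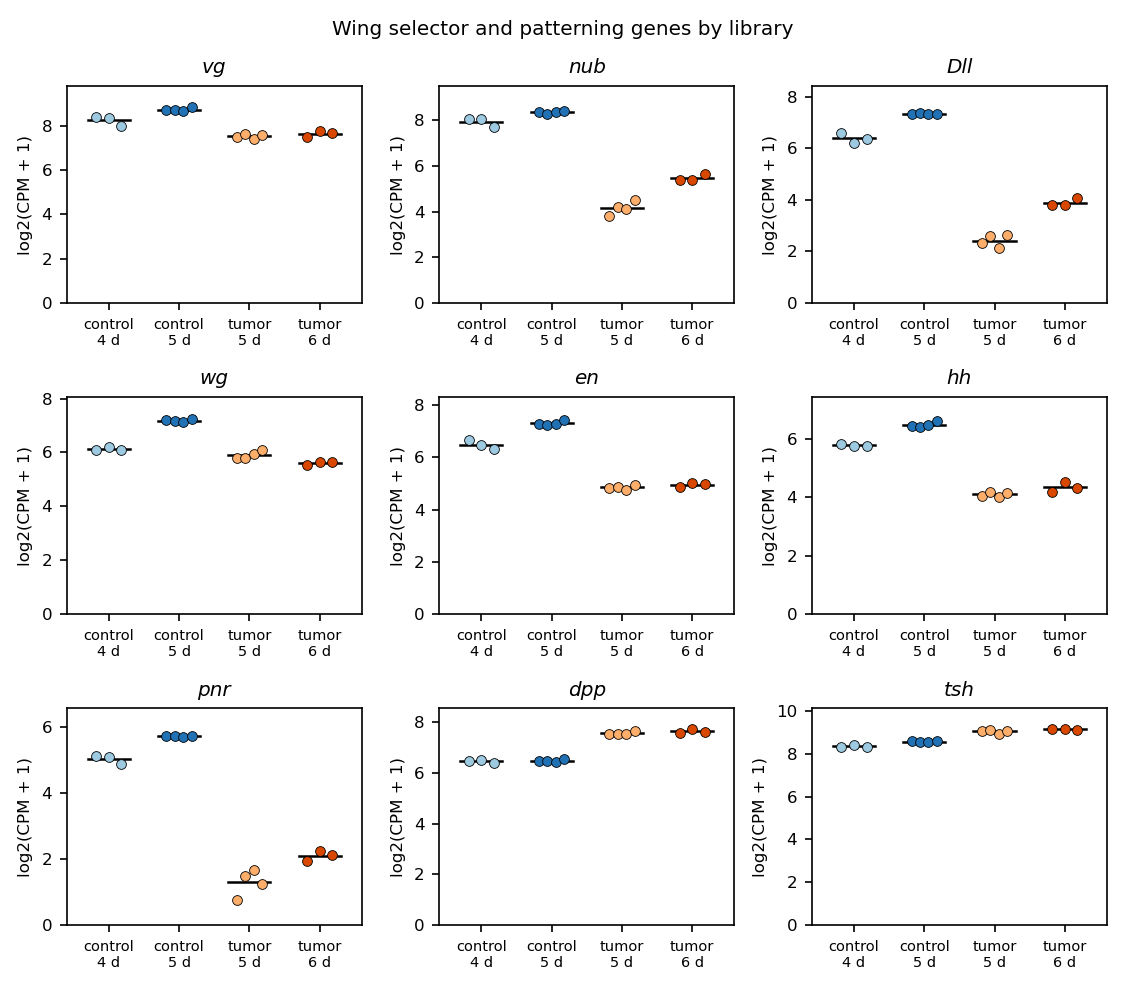
Points are single libraries of control discs at 4 and 5 days and of tumors at 5 and 6 days, with the group mean as a line and log2(CPM + 1) on the y axis of each panel. vg, nub, Dll, en, hh and pnr lie lower in both tumor groups than in both control groups and dpp and tsh lie higher, whereas wg in tumors at 5 days overlaps control discs at 4 days.

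Proneural and Notch target genes were mostly lower. sc, the proneural factor Scute, measured 1.04, 1.12 and 0.975 CPM in the tumors and 27.5, 24.1, 27.9 and 24.9 CPM in the control discs (log2 -3.73, SE 0.14, adjusted p = 1.1e-19, limma). Of the 11 tested genes of sensory organ formation 9 were lower and 1 higher, with a median of -1.35. When genes with a mean normalized count of 100 or less were left out, 5 of 7 were lower with a median of -0.38, and edgeR and DESeq2, which add no pseudocount of 1 CPM, gave a median of -4.0. The higher one was neur, the ubiquitin ligase of Delta endocytosis, with 13.0 to 16.0 CPM against 8.46 to 11.6 CPM (log2 0.50). Among Notch targets and core genes 14 of 17 were lower and 1 higher, with a median of -0.93. E(spl)malpha-BFM, a Bearded family gene in the Enhancer of split complex, measured 6.56, 8.13 and 5.03 CPM against 63.3 to 75.8 CPM (log2 -3.27), and E(spl)mdelta-HLH, a repressor of the same complex, 1.73, 0.795 and 1.28 CPM against 18.0 to 19.0 CPM (log2 -3.12). Counts against control discs at 4 days were smaller, with 6 of 11 and 10 of 17 lower, beside 24.9% of all tested genes.

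In EGFR signaling, 14 of 21 genes were lower and 3 higher, with a median of -0.42. kek1, a target and feedback inhibitor of the receptor, measured 31.1, 37.4 and 29.5 CPM in the tumors and 232, 229.9, 244 and 237 CPM in the control discs (log2 -2.82, SE 0.09, adjusted p = 2.3e-21, limma). It was higher than in tumors at 5 days (log2 0.83, adjusted p = 2.7e-07). rho, a protease that releases the ligand Spitz, measured 2.57, 2.57 and 3.03 CPM against 15.1 to 18.9 CPM (log2 -2.27). The targets did not move together. aos, a secreted inhibitor and target, did not pass (19.97 to 23.9 CPM against 17.4 to 19.1 CPM, log2 0.24, adjusted p = 0.071), and sty, the inhibitor Sprouty, was higher by log2 0.30, a call that ended with libraries scaled by reads alone. vn, the neuregulin-like ligand, measured 39.4 to 50.1 CPM against 56.3 to 60.5 CPM and just missed the threshold (log2 -0.37, adjusted p = 0.051, limma). It passed with edgeR and with DESeq2 (log2 -0.41 in both). Against control discs at 4 days 7 genes of the list were lower and 6 higher, beside 24.9% and 26.5% of all tested genes.

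Among 19 tested genes of the Hippo pathway 9 were higher and 9 lower, with a median of -0.03. The counts were 6 and 10 (median -0.13) with libraries scaled by reads alone, and 7 and 9 with DESeq2 size factors, edgeR or DESeq2. kibra, an upstream activator and target of the pathway, measured 302, 308 and 296 CPM in the tumors and 68.0, 66.5, 70.2 and 71.4 CPM in the control discs (log2 2.11, SE 0.07, adjusted p = 7.6e-21, limma). fj, a Golgi kinase and target, was higher by log2 1.05 and Myc, the growth regulator, by log2 1.04 (195 to 226 CPM against 96.1 to 106 CPM). Diap1, the caspase inhibitor and a classic target of Yorkie, was lower by log2 0.57 (367 to 395 CPM against 521 to 596 CPM), although it did not differ past the threshold from control discs at 4 days (log2 0.11, adjusted p = 0.12). yki itself was lower by log2 0.25.

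Cell cycle genes showed little common direction. stg, the Cdc25 phosphatase that drives entry into mitosis, measured 278, 269.9 and 255 CPM in the tumors and 123, 131, 123 and 131 CPM in the control discs (log2 1.07, SE 0.10, adjusted p = 3.9e-11, limma), but its mean in control discs at 4 days was 261 CPM. CycB, the mitotic cyclin, was lower (236 to 241 CPM against 311 to 344 CPM, log2 -0.46), as was Cdk4 (62.7 to 65.7 CPM against 88.7 to 96.6 CPM, log2 -0.54). dap, an inhibitor of Cyclin E, and trbl, a regulator of String, had log2 fold changes of 0.03 and 0.01 and did not pass. Of 34 genes, 10 were higher and 9 lower with a median of 0.01, which was -0.09 with 4 higher and 14 lower genes when libraries were scaled by reads alone, and also below 0 with DESeq2 size factors, with edgeR, with DESeq2, with the replicate block and without control replicate 1 or control replicate 3 (-0.03 to -0.01). Against control discs at 4 days 26 genes were lower and 1 higher. Among apoptosis genes 6 of 11 were lower and 3 higher. rpr, an inducer of cell death, measured 29.8 to 32.8 CPM against 14.0 to 15.8 CPM (log2 1.01) but was lower than in control discs at 4 days (log2 -0.63), and the effector caspase gene Dcp-1 was lower (log2 -0.71).

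Adhesion genes were higher with few exceptions. cher, the filamin that cross-links actin, measured 3928, 4047 and 4141 CPM in the tumors and 367, 446, 388 and 466 CPM in the control discs (log2 3.28, SE 0.07, adjusted p = 2.7e-25, limma). Of the 13 genes of integrins and their adhesions 12 were higher and none lower, with a median of 1.05, and the same counts held against control discs at 4 days. Pax, the adaptor Paxillin, measured 385, 389 and 385 CPM against 111 to 119.7 CPM (log2 1.72), and scb, the integrin subunit alphaPS3, was higher by log2 1.65, with means of 239.5 and 76.1 CPM. The talin gene rhea (log2 1.01) and mys, the beta integrin (log2 1.06), were among the rest. Zyx, the zyxin gene, was the one that did not pass (log2 -0.16, adjusted p = 0.081, limma). It was lower past the threshold with libraries scaled by reads alone, with DESeq2 size factors, edgeR or DESeq2, and without tumor replicate 1 or control replicate 2.

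The septate junction, where Scribble is found, had 16 of 20 genes higher and 3 lower, with a median of 0.53. Nrg, a neuroglian adhesion molecule of the junction, measured 1481, 1460 and 1469 CPM in the tumors and 549 to 598 CPM in the control discs (log2 1.34). Fas3, the Fasciclin of lateral membranes, was lower, with 698, 716 and 734 CPM against 1098, 1215, 1123 and 1164 CPM (log2 -0.68, SE 0.05, adjusted p = 1e-12, limma). Among 11 genes of apical-basal polarity 6 were higher and 2 lower. l(2)gl, a partner of Scribble in the basolateral group, measured 750.0, 668 and 669 CPM against 297 to 311 CPM (log2 1.19), and sdt, the partner of Crumbs, 440.2 to 464 CPM against 182 to 194 CPM (log2 1.25). dlg1, another basolateral gene, had a log2 fold change of 0.04 and did not pass (adjusted p = 0.51). aPKC was lower by log2 0.14.

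In the basement membrane list 6 of 11 genes were higher and 3 lower. Tig, an extracellular ligand of integrins known from muscle attachments, measured 272, 258 and 259 CPM in the tumors and 11.2, 15.6, 7.45 and 10.5 CPM in the control discs (log2 4.48, SE 0.24, adjusted p = 4.3e-16, limma). Ppn, the proteoglycan-like Papilin, was lower, with 137, 171 and 175 CPM against 889 to 1150 CPM (log2 -2.68). The collagen IV genes Col4a1 and vkg were higher than at 5 days in control discs (log2 1.25 and 1.27), but their tumor means of 141 and 107 CPM were under those of control discs at 4 days (326 and 232 CPM). Collagen IV is made largely by fat body and hemocytes, whose markers are given above, and their part was not tested.

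Chitin and apical matrix genes split in both directions, with 13 of 23 higher and 8 lower. Idgf6, a chitinase-like protein, measured 121, 124 and 122 CPM in the tumors and 11.3, 14.6, 4.76 and 10.5 CPM in the control discs (log2 3.54), but its mean in control discs at 4 days was 98.9 CPM. Gasp, a chitin-binding protein of tracheal and epidermal matrix that also stood in the trachea marker list, measured 1127, 1139 and 1131 CPM against 156 to 172 CPM (log2 2.78, SE 0.10, adjusted p = 6.1e-21, limma) and was higher than in control discs at 4 days as well (log2 2.18). The chitinase gene Cht5 measured 3.41, 6.404 and 4.26 CPM against 130.0 to 208 CPM (log2 -4.91), and nyo, a zona pellucida domain protein of the apical surface, 1.58, 2.62 and 2.87 CPM against 88.2 to 104 CPM (log2 -4.85).

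Glycolytic enzymes and lactate dehydrogenase moved apart. ImpL3, which encodes lactate dehydrogenase, measured 119, 399 and 255 CPM in the tumors and 17.5, 12.3, 17.8 and 18.6 CPM in the control discs (log2 3.73, SE 0.54, adjusted p = 5.3e-07, limma). The tumor libraries varied widely among themselves, yet all lay above the control discs. ImpL3 was higher than in tumors at 5 days (log2 2.10, adjusted p = 0.012), whose mean was 54.6 CPM. Of the 12 genes 8 were lower and 2 higher, with a median of -0.42. Pfk, the phosphofructokinase, measured 53.9, 76.6 and 69.0 CPM against 197 to 217 CPM (log2 -1.64), Tpi, the triose phosphate isomerase, 79.2, 106 and 101 CPM against 264 to 297 CPM (log2 -1.55), and PyK, the pyruvate kinase, was the other higher gene (log2 0.42). The count of lower genes was also 8 against control discs at 4 days.

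In the lists of cytosolic and mitochondrial ribosomal proteins and of the respiratory chain, the medians were 0.30 to 0.43. Of 82 cytosolic ribosomal protein genes 75 were higher and 1 lower, with a median of 0.43. RpL39 measured 925, 796 and 822 CPM in the tumors and 539.8, 462, 427 and 433 CPM in the control discs (log2 0.87). Of 71 mitochondrial ribosomal protein genes 53 were higher and none lower (median 0.30), and of 65 genes of the respiratory chain and ATP synthase 51 were higher and 2 lower (median 0.31). When libraries were scaled by reads alone the mitochondrial ribosomal counts were 33 and 2. The counts differed with the age of the control discs. Against control discs at 4 days 54 cytosolic ribosomal genes were higher and 1 lower, but for mitochondrial ribosomal proteins 5 were higher and 16 lower, and for the respiratory chain 4 were higher and 23 lower. In control discs 67 and 58 genes of these 2 lists fell from 4 to 5 days. SdhB, a subunit of succinate dehydrogenase, serves as an example, with a mean of 231 CPM in the tumors, 146 CPM in control discs at 5 days and 217 CPM at 4 days. Of 20 vacuolar ATPase genes 16 were higher and none lower (median 0.52), and 15 were higher against control discs at 4 days. Proteasome genes went down at both ages, with 27 of 33 lower than in control discs at 5 days (median -0.20) and 30 of 33 lower than at 4 days.

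Heat shock genes and immune genes had wide ranges. Hsp27, a small chaperone known to be induced by ecdysone, measured 291, 356 and 230 CPM in the tumors and 4125, 3210, 4095 and 3759 CPM in the control discs (log2 -3.71, SE 0.25, adjusted p = 8.7e-14, limma). It was also lower than in control discs at 4 days (log2 -1.49). Hsp68, an inducible chaperone of the Hsp70 family, measured 141, 172 and 70.4 CPM against 14.7, 23.8, 4.01 and 10.7 CPM (log2 3.30), so that the groups were apart although the libraries within each group spread widely. Of 16 heat shock genes 10 were higher and 3 lower. The count of higher genes was 7 without tumor replicate 1 or tumor replicate 2, and 8 without control replicate 3 or control replicate 4. The Hsp70 genes are near-identical copies, so that many reads cannot be assigned to a single copy, and values of single copies are uncertain. In the Toll, Imd and antimicrobial peptide list 12 of 23 were higher and 3 lower, with a median of 0.87. PGRP-SA, a receptor for bacterial peptidoglycan upstream of Toll, measured 55.6, 55.2 and 58.8 CPM in the tumors and 0.863 to 1.68 CPM in the control discs (log2 4.73), and Dif, an NF-kappaB factor of the Toll pathway, 38.4, 35.9 and 38.8 CPM against 1.42 to 3.16 CPM (log2 3.55). When genes with a mean normalized count of 100 or less were left out, 9 genes of the list remained in the test. Of these 6 were higher and 3 lower, with a median of 0.20. edgeR and DESeq2 gave medians of 2.29 and 2.32 for the 23 genes, so that the size of the median depends on genes with low values.

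**Figure D5:**
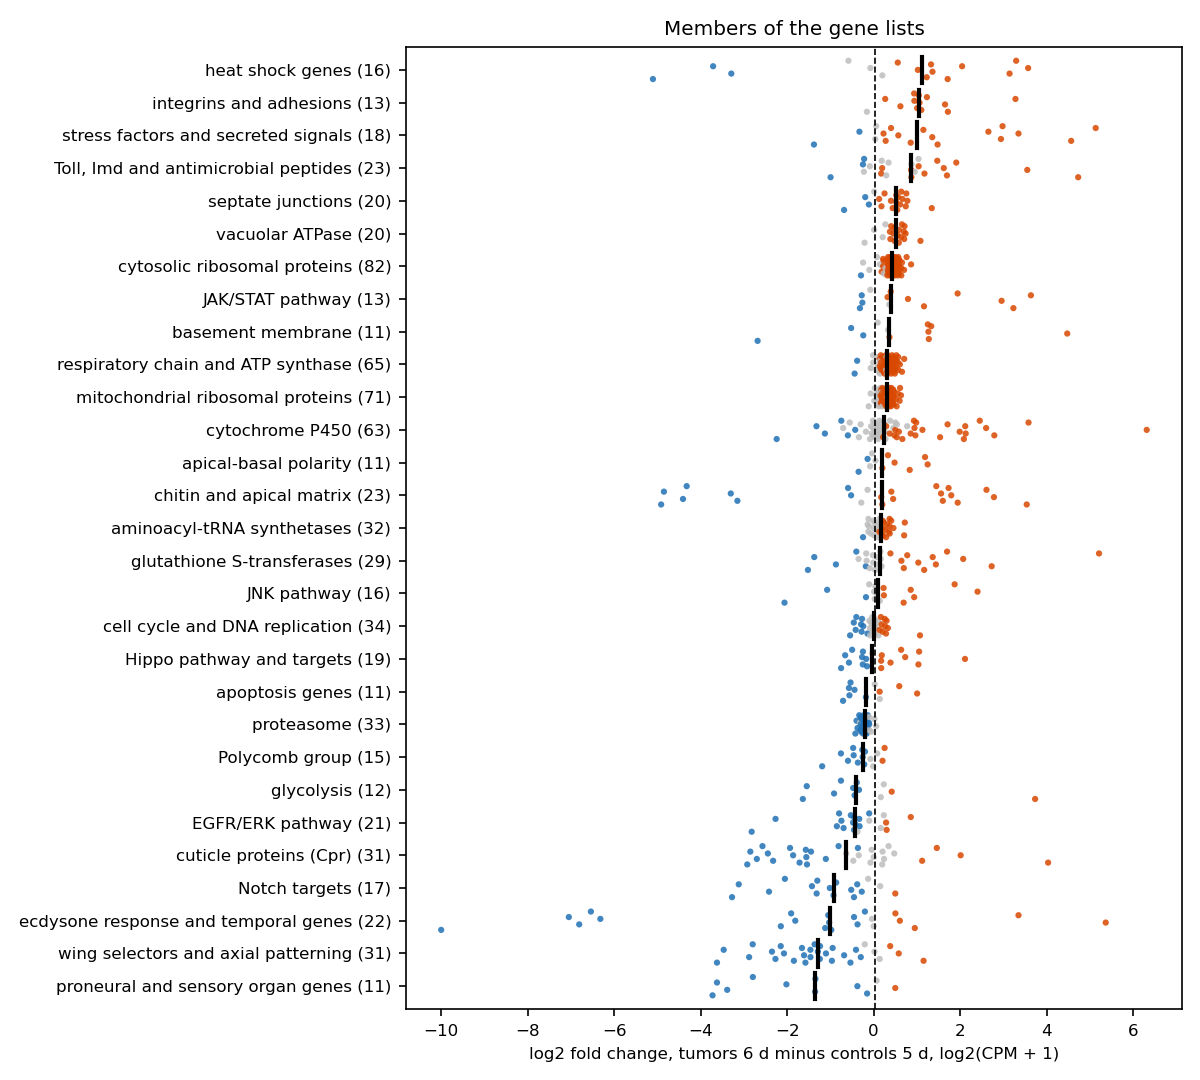
Each point is a tested member of a gene list at its log2 fold change (tumors at 6 days minus control discs at 5 days, log2(CPM + 1)), orange where higher, blue where lower and gray where it did not pass, with the number tested in parentheses. Black bars are list medians and the dashed line is the median of all tested genes (0.04), and on this scale the medians of the lists drawn run from -1.35 for proneural genes to 1.13 for heat shock genes.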

How the data were processed

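Bulk RNA-seq of wing imaginal discs was analysed in 34 libraries of 9 groups. According to the methods and labels, the authors used STAR to map reads to BDGP6, featureCounts (Subread, default settings) to assign them to genes and edgeR to normalize the counts. The deposited values are CPM. In some libraries, tumors at 6 days included, the values sum to more than CPM can without scaling. Such values are named a signal here, counts that the authors divided by a size factor. All libraries were analysed with the same steps. The values of control discs at 5 days summed to 948876 to 972682, so that these libraries were scaled as well. In every library 100% of values were whole multiples of 1 step within 0.01 steps, so that reads could be recovered.

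limma (3.58.1, R 4.3.3) was fitted to log2(CPM + 1) over all 9 group means, with an intensity trend, after a filter on low values by group (filterByExpr of edgeR 4.0.16 on recovered reads), with Benjamini-Hochberg adjustment over 9637 genes and a threshold of 0.05. edgeR and DESeq2 (1.42.0) were run on recovered reads as alternatives, beside other pseudocounts (0.1 and 0.5), filters, scalings, a replicate block, a fit of the 2 groups alone and leaving out each library.

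Members and gene lists were chosen with earlier results of these data known. Named were the 15 largest rises and falls with at least 10 CPM in the higher group and no overlap, preselected pathway genes, the 2 most positive and 2 most negative called members of each list, and scrib. Named after their values were seen, outside this rule, were Col4a1, vkg, Zyx, mys, rhea, scb, bsk, hep, grnd, ci, sd, dlg1 and the sex-specific genes. Gene lists were described by counts and medians, with no test. The comparison with control discs at 4 days was added after seeing the data. Positions of 17490 of 17641 symbols (99.1%) came from an Ensembl annotation of BDGP6 that may differ from the release the authors used. Counting strand is not stated beyond default settings, so that overlapping and antisense genes are uncertain. The symbols trol, Mcm3, Imp, Hsp67Bb, tyn and btl were not analysed here.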

Additional observations from a re-analysis of the deposited data

Results flagged for a closer look

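Among 191 sets of 4 control values, 10 held a library that stood apart by Dixon's test at 95%, of which chance alone gives about 1 in 20. Control replicate 4 was high for the salivary glue genes Sgs3 (65.3 CPM, others 4.33 to 8.16) and Sgs4 (24.9 CPM, others 2.19 to 5.33), and for the sum of salivary markers (103.6 CPM, others 7.98 to 15.2). The same library was high for ara (222 CPM, others 199.5 to 203) and low for ATPsynepsilonL (0.767 CPM, others 1.46 to 1.47). Control replicate 2 stood apart for Cyp6a17 (0.432 CPM, others 0.137 to 0.144) and GstS1 (913 CPM, others 944.6 to 945.2). Control replicate 1 was high for GstE1 (3.92 CPM, others 2.97 to 3.07) and wgn (70.6 CPM, others 66.6 to 67.1). Vha36-3 had 0.094 CPM in control replicate 3, a value below that of 3 reads, and was listed at 0 in the others.

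Of 49 core genes, 12 differed between tumors at 6 and 5 days, where 4.5% of all tested genes were higher and 3.94% lower. With the same control discs on both sides, this is also the change in the difference from control discs. The difference shrank for Dll by log2 1.47 (from -4.94 to -3.47), for nub by 1.33 (from -4.21 to -2.88), for ara by 1.24 (from -3.08 to -1.84), for caup by 0.88 (from -2.34 to -1.46), for kek1 by 0.83 (from -3.65 to -2.82), for vn by 0.78 (from -1.15 to -0.37) and for br by 0.75 (from -2.89 to -2.15). It also became smaller where genes were higher in tumors, with changes of log2 -0.65 for Ets21C (5.22 to 4.57), -0.62 for upd3 (3.85 to 3.23), -0.56 for upd1 (3.52 to 2.96) and -0.43 for Mmp1 (2.84 to 2.40). It grew for ImpL3 by log2 2.10 (from 1.63 to 3.73). All of these genes moved toward the control level between 5 and 6 days except ImpL3.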

How the results depend on the processing

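Counts of higher and lower genes stayed within 1.5 times of 3172 and 2799 under every alternative run: 2519 and 3409 with libraries scaled by reads alone, 3107 and 3000 with edgeR on recovered reads, 3135 and 3012 with DESeq2, 3442 and 2958 in a fit of the 2 groups, and 2893 to 3052 and 2611 to 2726 without single libraries. Of the higher and lower genes 2932 and 2767 were shared with edgeR. Of 3074 values of named genes, 3027 kept their direction and their side of the threshold, 33 lost the call, 14 gained it and 0 reversed. The genes concerned included ATPsynepsilonL, Osi15, vn, Stat92E, E(z), crb, esc, htl and sty. Whether the replicate numbers pair the samples was not settled. Correlations of same-numbered deviations were low (0.109, 0.090 and 0.147, others -0.137 to 0.089), but each tumor library correlated best with its own number. With the replicate block 3127 genes were higher and 2785 lower. The planned search for promoter motifs was not run, and promoter sequences were not analysed here. Precision is limited by 3 and 4 libraries and, for genes under about 0.15 CPM, by depth.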

Other observations

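Several gene families outside the pathways above were also counted, beside 32.9% higher and 29% lower among all tested genes. Among cytochrome P450 genes, which oxidize hormones and foreign compounds, 25 of 63 were higher and 6 lower (9 and 3 when genes with a mean normalized count of 100 or less were left out), with Cyp6a23 at means of 11.5 and 0.046 CPM and Cyp301a1, a cuticle-associated member, at 4.23 and 23.7 CPM. Of 29 glutathione S-transferase genes 12 were higher and 5 lower. The shares of higher genes in these 2 families, 39.7% and 41.4%, were not far above that of all tested genes. Against control discs at 4 days 15 cytochrome P450 genes were higher and 12 lower, and 9 glutathione S-transferase genes were higher and 9 lower. GstE1 measured 30.5, 28.0 and 23.1 CPM in the tumors against 2.97 to 3.92 CPM (log2 2.73), and GstS1 was lower with 344 to 395 CPM against 913 to 945 CPM (log2 -1.37). Of 31 cuticle protein genes of the Cpr family 4 were higher and 16 lower (median -0.63), with 7 and 18 by DESeq2 and 2 and 7 after the stricter filter. Cpr47Eb measured 29.3 to 31.6 CPM against 0.802 to 0.992 CPM, and Cpr49Ac 29.2 to 29.9 CPM against 156 to 284 CPM, although the latter was higher in the tumors than in control discs at 4 days (log2 1.72).

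Polycomb group genes, which keep developmental genes silent, were mostly lower, with 10 of 15 lower and 2 higher (median -0.25). Su(z)2 measured 17.8, 20.9 and 18.7 CPM in the tumors against 42.7 to 46.4 CPM (log2 -1.19) and ph-d 64.9 to 68.9 CPM against 109 to 119 CPM (log2 -0.76). E(z), the histone methyltransferase, was higher by log2 0.21, a call that ended with libraries scaled by reads alone. Of the Hox genes, Antp was higher (125 to 137 CPM against 86.4 to 94.0 CPM, log2 0.52) and Ubx, known for the haltere, lower (6.06 to 6.78 CPM against 12.8 to 28.2 CPM, log2 -1.42). Among genes of adult muscle precursors, the myoblasts that lie on the notum, 4 of 6 were lower and 1 higher, with Him at 3.37 to 3.65 CPM against 10.6 to 14.9 CPM (log2 -1.65). Of 32 aminoacyl-tRNA synthetase genes 17 were higher and 1 lower, which was 11 and 4 with libraries scaled by reads alone.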
